A study of Mus musculus with 12 samples.

Results

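The accessible chromatin of 3 forkhead transcription factor genes, Foxp1, Foxo1 and Foxo3, was described in mouse CD4+ T cells, both naive and polarized to Th1 or Th2. Their regions were the called ATAC-seq peaks that overlapped the body of the gene or the 20 kb on each side of it (build GRCm38). After overlapping peaks of all 12 libraries had been merged, the 3 genes held 156 of 110642 regions, with 113 at Foxp1, 23 at Foxo1 and 20 at Foxo3. Of these regions 147 lay in a gene body, 8 upstream and 1 downstream of it, and exons were not told from introns. A region counts as open in a library where a peak of that library overlaps it. Its strength is the percentile of the peak's −log10 q-value within its own list, where 100 is the strongest peak, so that strengths are ranks and not amounts of signal.

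ATAC-seq, in which the transposase Tn5 cuts and tags accessible DNA, was made from spleen CD4+ T cells of C57BL/6J mice, called wild type here, and of the strain labelled C57BL/6J-Ets1-SE-KO, a knockout of a super-enhancer, or dense cluster of enhancers, at Ets1. The naive cells were isolated with negative selection beads and used directly. Th1 cells had been cultured for 6 days on anti-CD3 with anti-CD28, IL-12 and IL-2, and Th2 cells for 6 days on anti-CD3 with anti-CD28, IL-4 and an antibody against interferon-gamma. This made 6 groups of 2 libraries. By their titles the naive libraries of a genotype were technical replicates of 1 biological sample, so their spread is technical, and the polarized groups held 2 biological replicates each. The age of the mice is not given in the sources used here.

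The lists held 34746 to 56357 peaks, and the number of reads behind them is unknown, so a region with no peak may still be accessible below the calling threshold. Among naive lists, median −log10 q-values were 8.20 and 9.78 for the wild type and 4.93 and 5.67 for the knockout, and polarized lists had 3.39 to 4.14. The peak names carried 1 tag in all naive lists and another 1 in all polarized lists, so whatever that tag stands for and the cell state cannot be told apart. Within 500 kb of Ets1, the stretch with no peak of the 6 knockout libraries and the most wild-type peaks was sought. It spanned 25.6 kb beyond the gene and held 32 peaks of the wild-type libraries, 4 to 6 in each. The absence of knockout peaks there was set by this choice. The source name of the 2 libraries taken as Th2 knockout is Th2 cells, while their titles name Th1. Both had 0 peaks within 1 kb of Ifng and 1 peak at Il5, as did both Th2 wild-type libraries. All 4 Th1 libraries had 1 or 2 peaks at Ifng and 0 at Il5. Gata3 had 3 peaks in each Th1 library and 4 or 5 in each Th2 library. The other Th1 and Th2 markers did not separate the types. Tbx21 had 1 peak in Th2 knockout replicate 1 and 0 in Th1 wild-type replicate 2. Il4 had 1 peak in every polarized library but Th1 wild-type replicate 2, and Il13 had peaks in Th2 knockout replicate 1 only. Of 6 CD4+ T cell markers, 5 or 6 had a peak in both libraries of every group, and Thy1 had none in polarized cells.

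FOXP1 is a transcription factor that keeps naive T cells quiescent and restrains their differentiation. FOXO1 sustains naive T cells by driving genes for survival and homing, such as those of the IL-7 receptor, CCR7 and KLF2, and FOXO3 acts on overlapping targets in cell survival and stress defence. Antigen and cytokine signals through PI3K and AKT phosphorylate FOXO proteins and move them out of the nucleus.

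The promoters of the 3 genes are shown first because their start sites were weakly or unevenly open. They are the 250 bases before the start site, 5′ to 3′ on the strand of the gene, from the RefSeq promoter table (GRCm38.p6), which listed 3 starts for Foxp1 and 1 each for Foxo1 and Foxo3. Capitals mark matches on either strand to the ETS core GGAAG or its reverse complement, the letters bound by ETS factors such as ETS1, or to the forkhead letters TGTTTNC or their reverse complement, where N is any base.
Foxp1, inner start, chr6:99266516-99266765, minus strand: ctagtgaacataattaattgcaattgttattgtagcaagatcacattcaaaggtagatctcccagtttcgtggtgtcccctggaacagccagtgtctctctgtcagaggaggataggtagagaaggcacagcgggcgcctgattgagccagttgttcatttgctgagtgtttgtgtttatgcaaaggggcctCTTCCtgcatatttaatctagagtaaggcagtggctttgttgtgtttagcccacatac
Foxp1, innermost start, chr6:99028299-99028548, minus strand: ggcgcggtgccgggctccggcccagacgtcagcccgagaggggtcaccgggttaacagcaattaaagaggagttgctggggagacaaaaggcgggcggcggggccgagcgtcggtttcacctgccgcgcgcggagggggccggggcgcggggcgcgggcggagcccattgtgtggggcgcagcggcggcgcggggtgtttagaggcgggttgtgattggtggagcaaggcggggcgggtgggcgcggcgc
Foxo1, chr3:52268087-52268336, plus strand: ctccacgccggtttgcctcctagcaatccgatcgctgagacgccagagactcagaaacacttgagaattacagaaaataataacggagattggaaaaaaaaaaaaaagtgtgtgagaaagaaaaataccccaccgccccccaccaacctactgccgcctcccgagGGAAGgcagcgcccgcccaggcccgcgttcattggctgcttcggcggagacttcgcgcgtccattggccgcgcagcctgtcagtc
Foxo3, chr10:42276696-42276945, minus strand: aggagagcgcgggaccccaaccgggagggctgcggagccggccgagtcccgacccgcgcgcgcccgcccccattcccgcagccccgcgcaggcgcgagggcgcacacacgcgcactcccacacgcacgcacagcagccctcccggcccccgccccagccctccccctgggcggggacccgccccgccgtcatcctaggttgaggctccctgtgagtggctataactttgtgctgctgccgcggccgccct
The inner Foxp1 promoter had 45.2% G and C and 3 CpG, the innermost one 74% and 34, Foxo1 56% and 20, and Foxo3 76.4% and 31, beside medians of 52.4% and 6 CpG over 32851 promoters. The ETS core was found 58 bases before the inner Foxp1 start and 85 bases before the Foxo1 start, and in none of the other 3 promoters. It is common, with a match in 64.1% of all promoters, and the longer ETS letters CCGGAAG, in 6.91% of all promoters, had no match in the 5, nor had the stricter forkhead letters TGTTTAC, in 3.17%. The forkhead letters matched once, 167 bases before the remaining Foxp1 start at 99520993, and match 17.8% of all promoters. The SP/KLF letters GGGCGG, in 32.7% of all promoters, matched in the innermost and the remaining Foxp1 promoter, in Foxo1 and in Foxo3. No match was found in the 5 promoters to the letters of AP-1 (TGANTCA, in 6.75% of all promoters), of RUNX factors (TGTGGT, 14.0%), of the GATA family (here searched as AGATAA, 9.99%) or of TCF factors (CTTTGAT, 3.21%), and every motif was searched on both strands. A match says only that these letters stand in this window.

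The inner Foxp1 start was open in naive but hardly in polarized cells, and none of the Foxp1 starts was among the strong peaks of a list. The region over the inner start, chr6:99265960-99266680, was at percentiles 33.4 and 28.1 in naive wild type, 12.2 and 28.5 in naive knockout, 31.6 in Th2 wild-type replicate 1, and had no peak in the other 7 libraries. At the outermost start of the gene table, 99522746, the region chr6:99522551-99523667 was open in 9 libraries with a highest percentile of 46.7. Beside the innermost start, at 99028298, the region chr6:99028330-99028929 was open in 5 libraries and never above percentile 13.9. The remaining start, at 99520993, had a region 208 bp away that was open in 2 libraries, at 6.79 at most. For comparison, 41.2 to 44.9% of 21044 protein-coding start sites lay in a peak, depending on the library, and these peaks had a median percentile of 73.8 to 82.5.

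The Foxo1 and Foxo3 starts stood higher in naive than in polarized lists. At Foxo1, chr3:52267704-52268774 was at 55.5 and 56.5 in the naive wild type and at 58.4 and 59.0 in the naive knockout. In polarized lists it was at 10.7 to 26.1 in 6 libraries and had no peak in Th1 knockout replicate 2 and Th2 knockout replicate 1, so the naive and polarized values did not overlap. At Foxo3, chr10:42276487-42277089 was at 57.2 to 78.6 in the 4 naive libraries and at 14.6 to 53.9 in 5 polarized libraries, with no peak in the other 3. A neighbour 690 bp upstream of that start, chr10:42277385-42278383, was the only Foxo3 region open in all 12 libraries, and its percentiles ran from 62.1 to 96.0. All 4 naive values there, 92.7 to 96.0, stood above 7 of the 8 polarized values, and Th1 wild-type replicate 2 had 94.7. How many of all regions have naive percentiles apart from the polarized ones is not given here.

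Foxp1 (NCBI gene 108655, chr6:98925342-99522746, minus strand, 597 kb) had peaks scattered along the gene, and its strongest regions lay deep inside it. The peaks of a library covered 11.9 to 30.1 kb of its 637 kb window, and the longest gap with no peak in any library was 32016 bp. The 3 strongest of those away from the starts were open in all 12 libraries. The region chr6:99309180-99309985, 213 kb into the gene, was at 88.5 to 96.6 in naive and 95.6 to 99.4 in polarized lists. The region chr6:99056879-99057687, 465 kb in, was at 76.5 to 83.7 in naive lists and 97.5 to 99.6 in polarized lists, without overlap. The region chr6:99260900-99261934, 261 kb in, was at 67.7 to 84.1 in naive and 90.8 to 97.3 in polarized lists, again without overlap. These 3 were picked for their high mean percentile, and the share of all regions whose percentiles separate so is not given here. In all, 9 of 113 Foxp1 regions were open in every library, at a median width of 806 bp, whereas 24 were open in 1 library only (21.2%, beside 21.5% of all regions), at a median width of 246.5 bp and a median percentile of 11.8.

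**Figure D1:**
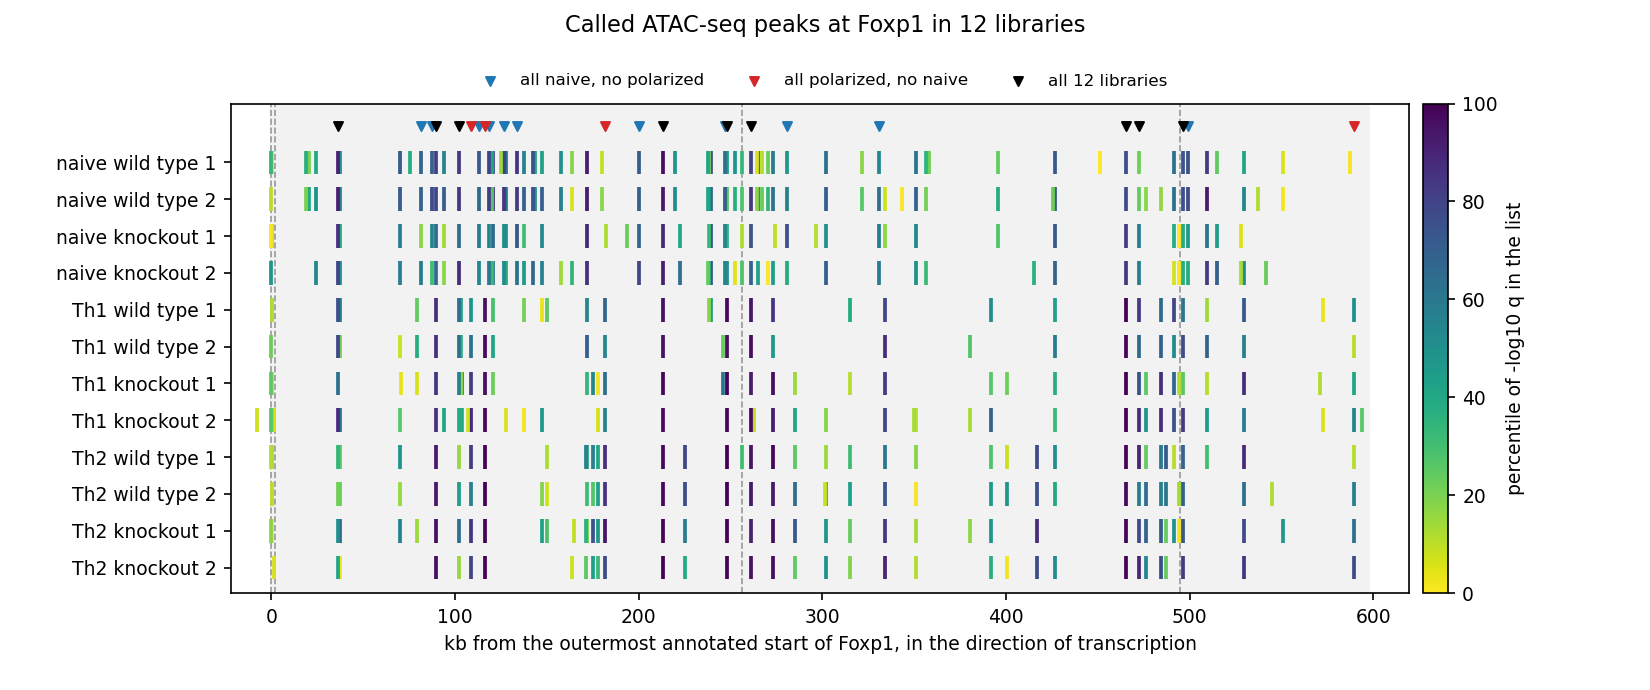
Peaks called at Foxp1 in each library (rows) by distance in kb from the outermost annotated start (horizontal axis, gene body shaded, dashed lines at start sites), with ticks at region centres coloured by the percentile of −log10 q in the list. Triangles mark the 9 regions open in all 12 libraries (black), the 11 open in all naive and no polarized library (blue) and the 4 open in all polarized and no naive library (red).

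Foxp1 had the most open regions of the 3 genes in every library, in a window of 637 kb against 122 kb at Foxo1 and 135 kb at Foxo3, and had most in naive cells. Per 100 kb of window Foxo1 stood above Foxp1 in naive wild type, with 14.0 and 14.8 peaks against 10.4 and 10.5, and in Th2 wild type, with 7.39 and 6.57 against 6.43 and 6.12. Foxp1 had 66 and 65 open regions in naive wild type, 48 and 55 in naive knockout, 34 and 29 in Th1 wild type, 38 and 44 in Th1 knockout, 40 and 39 in Th2 wild type and 42 and 34 in Th2 knockout. Per 10000 peaks of the list, which scales by list length, this was 12.6 and 11.9 in naive wild type, 11.9 and 12.6 in naive knockout, 8.14 and 8.35 in Th1 wild type, 8.48 and 9.92 in Th1 knockout, 7.57 and 7.56 in Th2 wild type and 7.45 and 6.66 in Th2 knockout. The 4 naive values stood above all 8 polarized values, and naive wild type and knockout had the same mean, 12.2. The order of group means was naive, Th1 knockout, Th1 wild type, Th2 wild type and Th2 knockout. Both Th1 groups stood above both Th2 groups. Wild-type and knockout values did not overlap within Th1 or within Th2 cells, with 2 libraries each, and interleaved in naive cells. An exact permutation test of 2 against 2 cannot go below 0.33. The share of all genes separated in this way is not given here, so no genotype effect is read from it.

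Foxo1 and Foxo3 showed the same order of naive above polarized cells, at lower numbers. Foxo1 (gene 56458, chr3:52268337-52350109, plus strand) had 17 and 17 open regions in naive wild type, 10 and 10 in naive knockout, 7 and 5 in Th1 wild type, 5 and 6 in Th1 knockout, 9 and 8 in Th2 wild type and 8 and 6 in Th2 knockout. Per 10000 list peaks this was 3.23 and 3.20, then 2.43 and 2.28, in naive wild type and knockout, and 1.09 to 1.66 over the 8 polarized libraries, so that naive wild type, naive knockout and polarized cells formed 3 steps without overlap. The step between the naive genotypes rests on 2 technical replicates each, and the share of all genes with such a step is not given here. Foxo3 (gene 56484, chr10:42181845-42276695, minus strand) had 11 and 12 open regions in naive wild type, 10 and 10 in naive knockout, 5 and 3 in Th1 wild type, 4 and 4 in Th1 knockout, 6 and 6 in Th2 wild type and 6 and 5 in Th2 knockout. Its shares were 2.09 and 2.14 in naive wild type, 2.43 and 2.28 in naive knockout and 0.863 to 1.16 in polarized cells. The naive and polarized values of Foxo3 did not overlap, and at both genes the Th1 and Th2 values did. Of 11812 genes tested, 13.3% had all 4 naive values above all 8 polarized values, as these 3 genes had. With the same 34746 strongest peaks taken from each list, the share of such genes was 10.7%, Foxp1 had 40 to 48 peaks in naive and 23 to 31 in polarized lists, and Foxo3 had 6 to 8 and 2 to 5. Foxo1 then had 9 and 8 in naive wild type, 5 and 5 in naive knockout and 2 to 5 in polarized lists, so its naive knockout and polarized values met.

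**Figure D2:**
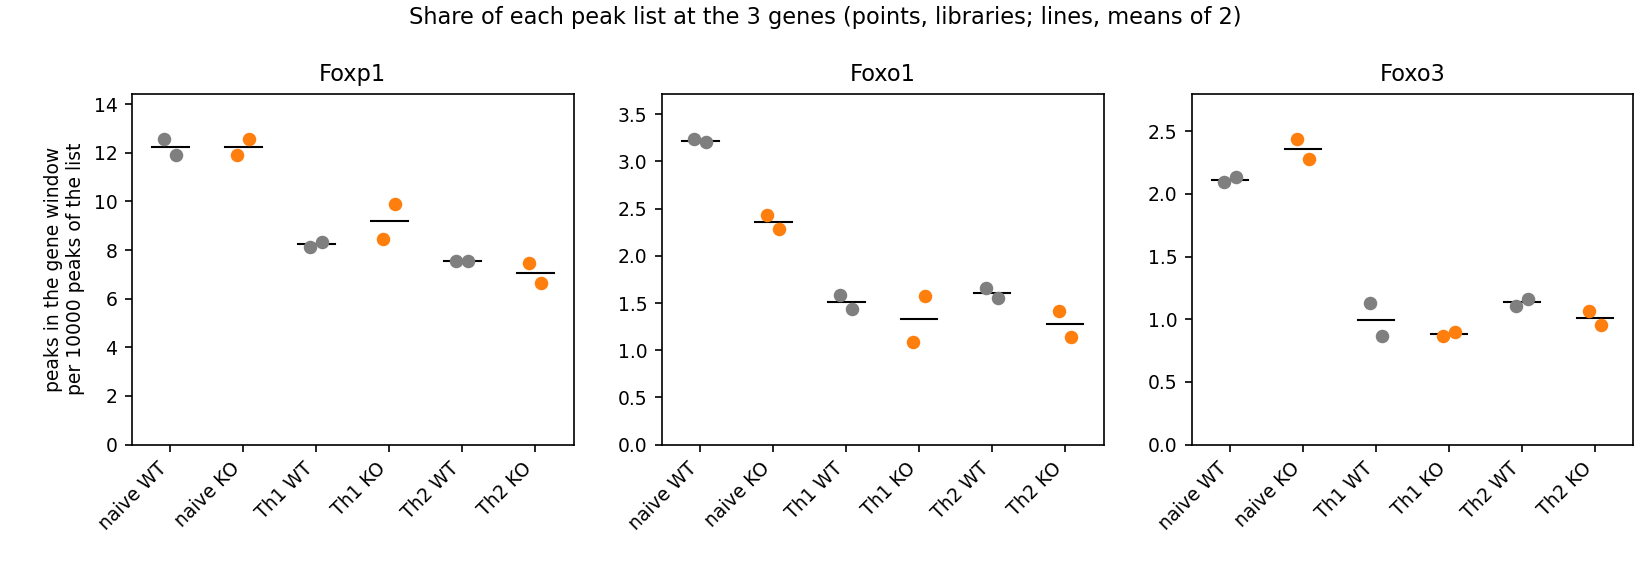
Peaks in the window of each gene per 10000 peaks of the list (vertical axis from 0), by group; points are libraries (grey wild type, orange knockout) and lines are means of 2 libraries. All 4 naive libraries stand above all 8 polarized libraries at each gene.

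In wild-type cells, most naive regions of the 3 genes had no peak after polarization. Both naive wild-type libraries had a peak in 85 regions, of which 54 were absent from both Th1 wild-type libraries, beside 46.6% of all regions so tested. These were 36 of 59 at Foxp1, 11 of 15 at Foxo1 and 7 of 11 at Foxo3. Against Th2 wild type 53 were absent, beside 42% of all regions, with 37 of 59, 9 of 15 and 7 of 11. In the other direction 8 of 32 Th1 regions had no peak in either naive library, beside 33.3% of all regions, and 19 of 46 Th2 regions, beside 44%. The share of naive regions absent after polarization was above that of all regions. With 2 libraries per group no p-value was computed, since an exact permutation test of 2 against 2 cannot go below 0.33. With lists of equal length 32 and 39 of 54 naive regions were absent from Th1 and Th2, beside 39.7% and 44.2% of all regions, and 12 of 29 (41.4%) and 13 of 24 (54.2%) in the other direction, beside 40.7% and 47.7%. The share of Th1 or Th2 regions absent from naive cells was thus below that of all regions with the lists as deposited and above it with equal lists, so it has no settled direction. Without Th1 wild-type replicate 2 the Th1 regions absent from naive cells numbered 15. Leaving out a library loosens the rule of presence and absence, so here and below such counts can only stay or rise. Peaks at myeloid and CD8 T cell markers were fewer in polarized than in naive lists. Within 1 kb of 5 myeloid markers the naive wild-type lists had 11 peaks each, the naive knockout lists 7 and the polarized lists 2 to 6, with Lyz2 at 0 in all groups. Itgam had 6 in each naive wild-type list, 3 and 2 in naive knockout and 1 or 2 in polarized lists. Cd14 went the other way in Th2 knockout, at 2 and 3 against 1 in each naive wild-type list. The CD8 T cell markers Cd8a and Cd8b1 had 2 to 3 peaks in naive and 0 to 1 in polarized lists. B cell markers had 3 to 5 in naive wild-type, 11 to 13 in naive knockout and 2 to 5 in polarized lists. Red cell markers had 3, 8 to 11 and 2 to 3. The CD4+ T cell markers had 30 to 33 in naive wild-type, 17 to 21 in naive knockout, 14 to 18 in Th1 and 24 to 27 in Th2 lists. The part of all these markers in the naive and polarized values was not tested.

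**Figure D3:**
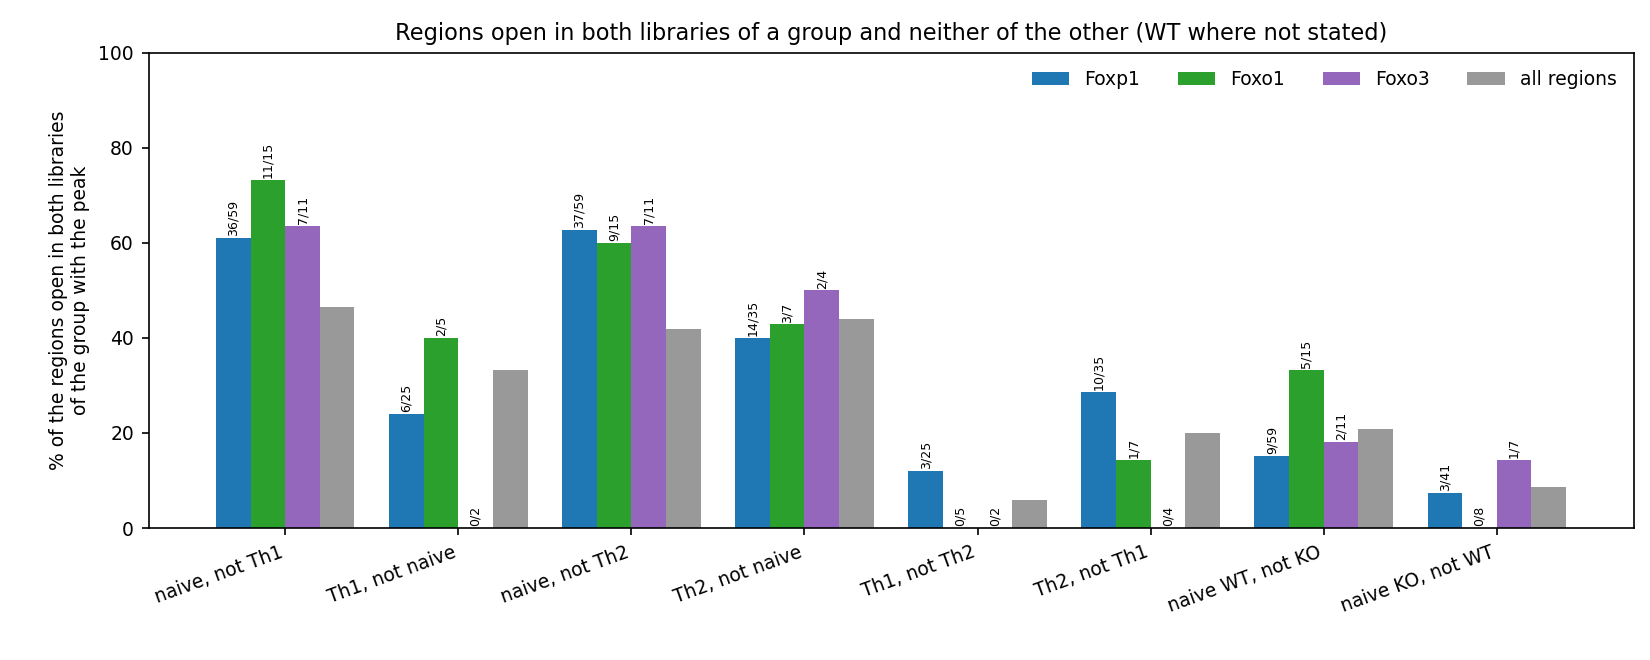
Regions open in both libraries of a group and in neither library of the other, as a percent of all that were open in both libraries of the first group (bars, axis from 0), for Foxp1, Foxo1, Foxo3 and all regions; numbers over the bars are regions called of regions open. The 3 genes stand above all regions where a naive region is absent from Th1 or Th2 cells.

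Regions that held to the cell state over both genotypes were found at all 3 genes. Of 50 regions open in all 4 naive libraries, 15 had no peak in any of the 8 polarized libraries, 30% beside 18.6% of all regions, and these were 11 of 37 at Foxp1, 2 of 7 at Foxo1 and 2 of 6 at Foxo3. Of 20 regions open in all 8 polarized libraries, 6 had no peak in any naive library, 30% beside 27.6%, with 4 at Foxp1 and 2 at Foxo1. Regions open in all 12 libraries were fewer than in the genome, with 10 of 156, 6.41% beside 13.2%. No protein-coding gene of 21627 had more than the 11 naive-only regions of Foxp1, and Prkce and Sgms1 had as many. Foxp1 is also a long gene, and of 258 genes with at least 10 regions open in all naive libraries, 108 had a higher share of them in that class. With lists of equal length Foxp1 had 14 naive-only regions, the next genes 9, and 21 of 107 genes a higher share. The 15 naive-only regions of the 3 genes were 26 without naive knockout replicate 1.

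Naive-only and polarized-only regions lay interleaved in Foxp1. The closest such group spanned 10.4 kb, chr6:99403910-99414276, and held 4 regions that alternated between the classes. The first, chr6:99403910-99404390, was at 80.4 and 82.2 in the naive wild type and at 53.8 and 59.9 in the naive knockout. After a gap of 1623 bp, chr6:99406014-99406719 had no naive peak and was at 95.7 to 99.4 in the 8 polarized lists, among their strongest peaks. Next came chr6:99409675-99410065, at 54.2 to 72.5 in naive lists, and chr6:99413667-99414276, at 48.4 to 88.3 in polarized lists. The stretch was chosen after its values were seen, as the shortest run of 4 regions with 2 of each class. The strongest naive-only region of Foxp1 was chr6:99388561-99389438, 134 kb into the gene, at 62.9 to 84.9, followed by chr6:99322387-99323020, 200 kb in, at 67.1 to 78.6. The other polarized-only regions were chr6:99340919-99341332, at 54.9 to 94.5, and chr6:98933025-98933612 near the 3′ end of the gene, at 10.8 to 77.0.

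At Foxo1 the polarized-only regions lay near the start and the naive-only regions farther in. The region chr3:52271352-52271888, 3.28 kb after the start, was at 65.4 to 92.2 in the 8 polarized lists, and chr3:52284579-52285182, 16.5 kb after it, at 33.9 to 94.6. Both had no peak in any of the 4 naive libraries. The naive-only regions lay 51.1 and 75.3 kb after the start. The former, chr3:52319221-52319611, was at 51.0 and 54.4 in the naive wild type and at 0.397 and 6.94 in the naive knockout. The latter, chr3:52343222-52344014, was at 67.7 and 58.8 in the naive wild type and at 32.9 and 56.1 in the naive knockout, below the wild type in both libraries. How many of all regions differ in this way between the naive genotypes is not given here. At Foxo3 the naive-only region chr10:42270622-42271137, 5.82 kb after the start, was at 38.7 to 61.5. Its neighbour chr10:42269090-42270049 was open in 11 of 12 libraries, at 68.5 to 91.6 in naive lists and 15.4 to 69.7 in 7 polarized lists. The other naive-only region of Foxo3, chr10:42226144-42226746, was at 60.9 and 68.2 in the naive wild type and at 50.4 and 20.8 in the naive knockout.

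**Figure D4:**
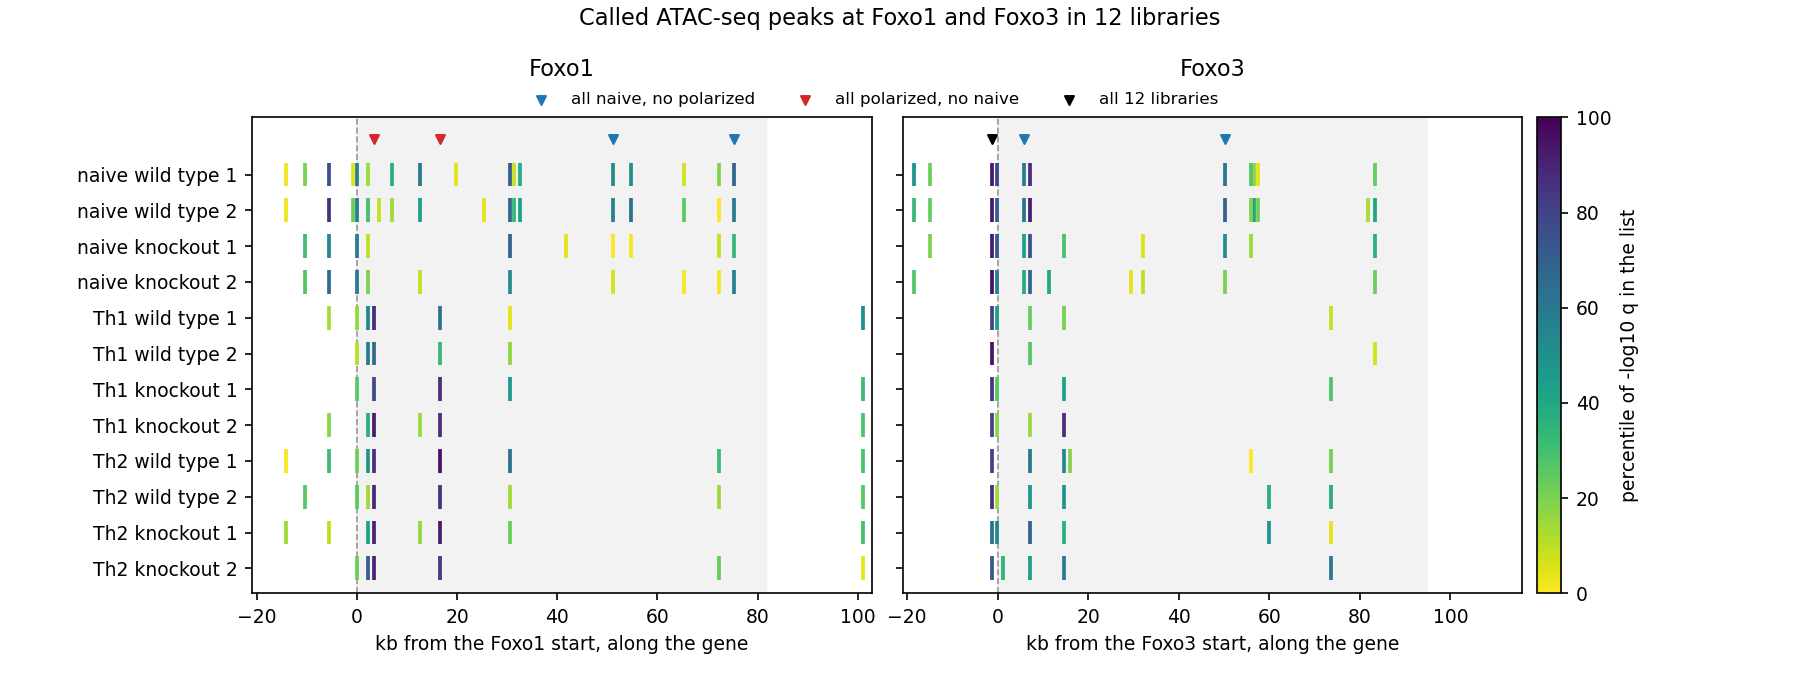
Peaks called at Foxo1 (left) and Foxo3 (right) in each library (rows) by distance in kb from the start site along the gene (gene body shaded), with ticks at region centres coloured by the percentile of −log10 q in the list. Triangles mark the 2 polarized-only regions near the Foxo1 start (red), the 2 naive-only regions of each gene (blue) and the Foxo3 region open in all 12 libraries (black).

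Between the helper types, Foxp1 took a larger share of the Th1 than of the Th2 lists, and the Th1 and Th2 values of Foxo1 and Foxo3 overlapped. Over both genotypes Foxp1 had 8.72 ± 0.809 peaks per 10000 in Th1 cells (SD, n = 4) and 7.31 ± 0.437 in Th2 cells (SD, n = 4), and the lowest Th1 library, 8.14, stood above the highest Th2 library, 7.57. The difference of -1.41 had an exact two-sided permutation p of 0.029, the smallest that 4 against 4 can give, and 0.223 after Benjamini-Hochberg adjustment over 11812 genes, so it did not pass. Of those genes 7.53% had all Th2 values below all Th1 values and 5.31% all above, 0 had an adjusted p under 0.05 and 1516 an unadjusted one. With lists of equal length the Foxp1 difference was -0.863 and its exact permutation p 0.2, and in wild-type libraries alone it was -0.679. Foxo1 had 1.42 ± 0.233 and 1.44 ± 0.224 (SD, n = 4 each, exact permutation p = 0.83), and Foxo3 0.941 ± 0.127 and 1.07 ± 0.0897 (SD, n = 4 each, exact permutation p = 0.143). The Foxo1 difference turned negative under each of the 5 other list, threshold, window and overlap rules tried.

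Single Foxp1 regions had peaks in 1 helper type only. In wild-type cells 3 of 32 Th1 regions had no Th2 peak, beside 5.85% of all regions, and all 3 were at Foxp1. In return 11 of 46 Th2 regions had no Th1 peak, beside 19.9%, with 10 at Foxp1 and 1 at Foxo1. Without 1 library the former count was 6 (without Th1 wild-type replicate 1), 7 (without Th1 wild-type replicate 2) or 5 (without Th2 wild-type replicate 1), and the latter 18 without Th1 wild-type replicate 1. The Th1 wild-type lists were shorter (44223 and 34746 peaks) than the Th2 wild-type lists (54160 and 51600), and with equal lists the counts were 6 and 5. Over both genotypes 3 Foxp1 regions were open in all 4 Th2 and no Th1 library, 3 of 37 for the 3 genes beside 7.47%, and 1 was open in all 4 Th1 and no Th2 library, 1 of 24 beside 1.86%.

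None of the 4 had a naive peak. The strongest, chr6:99105839-99106411, was at 77.4 and 75.7 in Th2 wild type and 86.8 and 76.8 in Th2 knockout. The region chr6:99297389-99297905 was at 79.3 and 76.6 in Th2 wild type and 58.8 and 39.2 in Th2 knockout, and chr6:99035600-99035935 at 72.3 and 61.2 and at 24.0 and 23.5. At the last 2 regions both knockout values were below both wild-type values, and at the strongest they interleaved. The share of all regions separated in this way is not given here, so no genotype effect is read from it. The Th1 region, chr6:99419460-99419930, was at 41.2 and 35.2 in Th1 wild type and 15.2 and 39.7 in Th1 knockout. These counts stood at 5 without Th1 knockout replicate 2 for Th2, and at 2 without that library or without Th2 wild-type replicate 1 for Th1.

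In naive knockout cells the 3 genes had fewer open regions, and the regions without a peak were weak ones. Of the 85 regions with a peak in each naive wild-type library, 16 had none in either naive knockout library, 18.8% beside 20.9% of all regions, so the 3 genes stood near the background. These were 9 of 59 at Foxp1, 5 of 15 at Foxo1 and 2 of 11 at Foxo3. Over all libraries where they had a peak, which adds a few Th2 values, their median percentile was 20.05. In the naive wild-type lists alone it was 28.3 for all regions so called and 64.7 for the other regions open there. The 4 strongest were chr6:99302768-99303373 at 48.1 and 50.9, chr6:99379337-99379665 at 41.4 and 49.6, chr3:52300609-52301045 at 38.1 and 42.3, and chr6:99502062-99502421 at 20.05 and 39.4. At Foxo1 chr3:52275069-52275415 and chr3:52299458-52299748 were also of this kind, at 14.3 to 37.7 and 7.83 to 33.3. The naive wild-type lists held 52571 and 56195 peaks and the naive knockout lists 41075 and 43823, and with equal lists 8 of 54 such regions were found. Without naive knockout replicate 2 the count was 31.

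Few regions of the 3 genes were open in naive knockout cells alone. Of 56 regions open in both naive knockout libraries, 4 had no naive wild-type peak, 7.14% beside 8.67% of all regions. The strongest was chr6:99300223-99300651 in Foxp1, at 40.3 and 63.9, which had no peak in any other library. The others were chr6:98994966-98995233 at 5.29 and 13.1, chr6:99028330-99028929 beside the innermost Foxp1 start at 0.290 and 0.997, and chr10:42244454-42244819 in Foxo3 at 4.92 and 9.86. These 3 stood among the weakest peaks of their lists. The count was 8 without naive knockout replicate 1 and 10 without replicate 2.

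The naive knockout libraries also differed from the wild type in markers of other cells. Within 1 kb of 7 B cell markers, 3 had a peak in both naive wild-type libraries (3 to 5 peaks in all, with Cd79b, Ms4a1 and Fcer2a among those at 0), and all 7 had one in both naive knockout libraries (11 to 13 peaks). Of 4 red cell markers, 3 had a peak in both naive wild-type libraries (3 peaks) and all 4 in both naive knockout libraries (8 to 11 peaks). The 6 CD4+ T cell markers had 30 to 33 peaks in the naive wild-type and 17 to 21 in the naive knockout libraries, so they moved the opposite way. The 5 myeloid markers also had fewer, with 11 peaks in each naive wild-type and 7 in each naive knockout list. The naive knockout lists were shorter too, with lower median −log10 q-values. In bulk cells a smaller share of naive T cells, less accessibility per cell and such differences between lists cannot be told apart. The part of these markers in the naive knockout values was not tested.

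In polarized cells few regions of the 3 genes had peaks in 1 genotype alone. In Th1 cells 0 of 32 wild-type regions had no knockout peak, beside 3.96% of all regions, and 4 of 34 knockout regions had no wild-type peak, 11.8% beside 8.76%. All 4 were at Foxp1, and 3 of them were also open in all 4 Th2 libraries. These were chr6:99046186-99046739, at 25.7 and 47.5 in Th1 knockout, chr6:99237415-99238417, at 14.6 and 40.7, and chr6:99344905-99345217, at 2.29 and 6.21. The fourth, chr6:99418597-99419096, at 55.5 and 37.1, was open in the Th1 knockout libraries only. With equal lists 3 regions were called in each direction, and the 4 became 9, 15 and 9 without Th1 wild-type replicate 1, Th1 knockout replicate 1 and Th1 knockout replicate 2. Without any 1 of the 4 libraries the 0 became 1 to 5. In Th2 cells 0 of 46 wild-type regions had no knockout peak, beside 3.83% of all regions, and 0 of 38 knockout regions had no wild-type peak, beside 4.56%. With equal lists 1 was called in each direction, and without single Th2 libraries 3 to 5 and 0 to 5.

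Genes that act on FOXO factors were described from a list of 15: the PI3K, AKT and mTOR pathway, the kinases SGK1 and STK4, and regulators such as SIRT1, USP7 and SKP2. Of 13 with enough regions, 3 had all naive values of their peaks per 10000 above all polarized values, beside 13.3% of 11812 genes, and 1 had all below, beside 10.6%. The 3 were Sgk1, a kinase that phosphorylates FOXO proteins, Pik3r1, the p85 subunit of PI3K, and Pik3ip1, an inhibitor of PI3K. Sgk1 stood out, with 17 and 19 open regions in naive wild type, 12 and 13 in naive knockout and 2 to 5 in each polarized library. Pik3r1 had a mean of 3.65 peaks per 10000 in naive and 2.43 in polarized libraries, and Pik3ip1 1.82 and 0.877. Mtor, the kinase of growth control, was the reverse, with 0.748 and 1.23. The median difference of the list, naive minus polarized, was 0.0759, beside 0.0658 over all genes tested.

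In a list of 20 FOXO and FOXP1 targets, 4 had all naive values above all polarized values, beside the same 13.3%. In 1 all were below, beside 10.6%. The 4 were Sesn1, a stress-induced regulator of mTORC1 (means of 2.08 and 0.811), S1pr1, which lets T cells leave lymph nodes (1.84 and 1.09), Cdkn1b, the cell cycle inhibitor p27 (1.34 and 0.785), and Cited2 (0.932 and 0.628). Gadd45a, a DNA damage response gene, was the gene below (0.630 and 1.08). The homing and survival genes Ccr7, Klf2 and Il7r overlapped between naive and polarized libraries. The median difference of the list was 0.245. Between the helper types 5 targets had all Th2 values below all Th1 values, Klf2, Eomes, Ccr7, Fbxo32 and Bcl6, and 1, Rag1, had all above, beside 7.53% and 5.31% of all genes, with the exact permutation p of 0.029 and an adjusted p of 0.223 for each. In naive knockout cells 28 of 130 target regions and 20 of 108 upstream regions had no peak, both near the 20.9% of all regions, and 3 of 84 and 4 of 79 were open in the knockout alone, beside 8.67%.

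Of the 5 other family members, Foxp2, a relative of Foxp1, differed in the opposite direction. All naive values of its peaks per 10000 lay below all polarized values, as in 10.6% of 11812 genes. It had 1 open region in naive wild-type replicate 2 and 0 in the other 3 naive libraries, 4 and 2 in Th1 wild type, 5 and 5 in Th1 knockout, 6 and 9 in Th2 wild type and 11 and 8 in Th2 knockout, so naive and polarized libraries did not overlap. Foxo4, Foxp3 and Foxp4 had means of 0.814, 1.03 and 1.46 peaks per 10000 in naive and 0.713, 0.868 and 0.994 in polarized libraries, with overlap. Foxo6 had 1 open region in every library. Foxp3 is in the target list too.

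**Figure D5:**
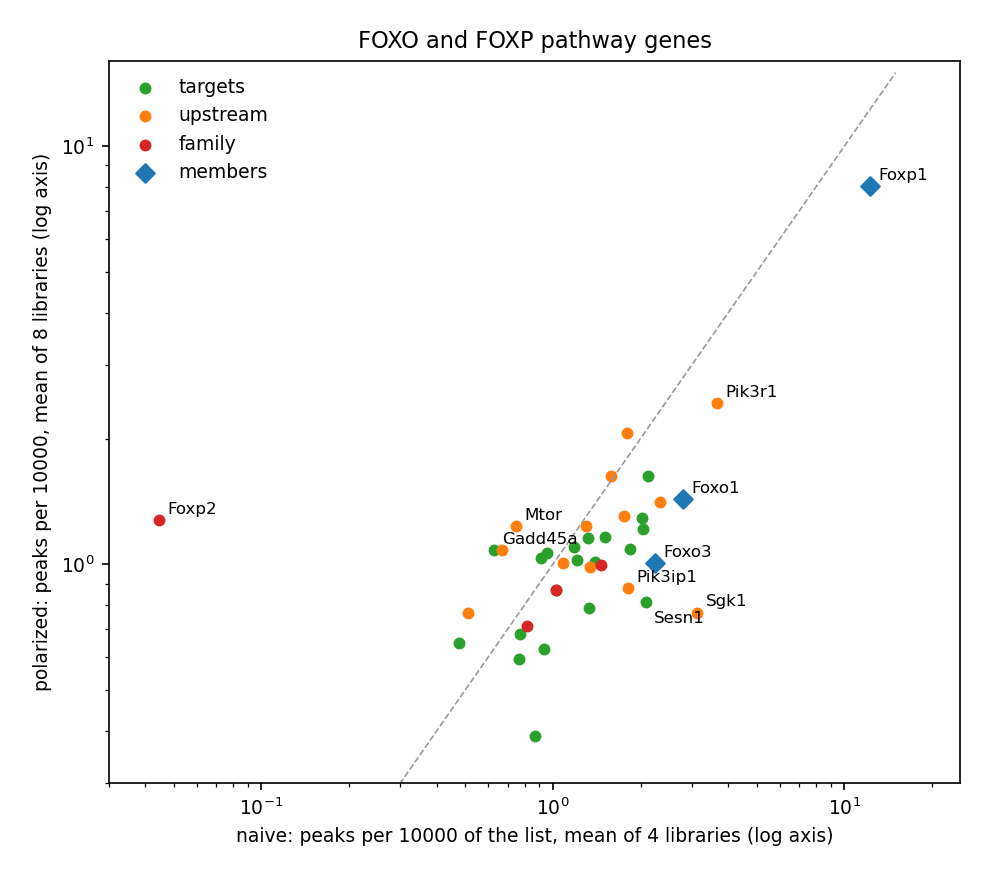
Mean peaks per 10000 of the list in the 4 naive (horizontal) and 8 polarized libraries (vertical), both on log axes, for the 3 genes (diamonds) and the genes of the 3 lists with enough regions (points); the dashed line marks equal values. Foxp1, Foxo1, Foxo3, Sgk1 and Sesn1 lie below the line and Foxp2, Mtor and Gadd45a above it.

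The genes whose peaks per 10000 followed those of a member most closely over the 12 libraries were, for Foxp1, Slc37a3 (Pearson's r = 0.979), Spi1, Dnah17, Eipr1 and Stk10. For Foxo1 they were Cox10 (r = 0.977), Coro2b, Etnk1, Fbxl18 and Txnip, and for Foxo3 Ctnnd2 (r = 0.978), Rai1, Mrtfa, Cdc42se2 and Zfp644. These values rank 4083 genes and describe 12 points that share cell state, genotype and list. The genes named had higher means in naive than in Th1 and Th2 cells, as the 3 genes had.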

How the data were processed

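ATAC-seq peak lists of 12 libraries were used. Reads were processed with BWA, Picard, MACS2 and GRCm38, per the submitters' processing notes, with versions and settings not given in the sources used here. Per the layout of the deposited lists, each peak has a score, a fold enrichment (ratio) over local background and the −log10 of its p-value and q-value. The highest q-value was 0.0998. These values are scaled within a library, so the deposited −log10 q was used only to rank peaks within a list.

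Only chromosomes 1 to 19 and X were kept. Peaks of any library that overlapped by at least 1 bp were joined into regions. Regions were assigned to a gene where they overlapped its body or 20 kb on each side, by the RefSeq gene table (GRCm38.p6), which held every gene of the lists. Depth is unknown, so no counting interval was given. A region was called where both libraries of a group and neither of the other had it. Peaks in a window per 10000 list peaks were compared between 4 Th1 and 4 Th2 libraries for 11812 protein-coding genes with at least 5 regions, by an exact two-sided permutation test with Benjamini-Hochberg adjustment. The functions were tested on simulated data. The naive libraries were set beside polarized ones without a test, since they are technical replicates.

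The 3 genes, the lists and the regions' rules were chosen with earlier results of these data known. Regions named are those within 1 kb of a start, the 3 others of highest mean percentile per gene, and the highest 4 at most of each class or call, besides those said to be chosen after seeing values. Single values of some list genes are not reported here. Similar genes are the 5 of highest Pearson's r among genes with at least 10 regions. Alternatives were equal list lengths, a −log10 q of at least 2, the gene body alone, 50 kb flanks, peaks that cover 50 percent of a region, leaving out each library, a replicate block and wild type alone. Computations ran in Python 3.11.15 with pandas 2.3.3, numpy 2.4.6 and scipy 1.17.1, and plots were drawn in matplotlib 3.10.9.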

Additional observations from a re-analysis of the deposited data

Results flagged for a closer look

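Among the 4 Th2 libraries, Th2 knockout replicate 2 stood apart at Foxp1, with 6.66 peaks per 10000 against 7.45 to 7.57 in the other 3. Among the 4 Th1 libraries, Th1 wild-type replicate 1 stood apart at Foxo3, with 1.13 against 0.863 to 0.901. Chance sets a library this far from the others in about 1 in 20 groups.

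In peaks per 10000 and open regions, 3 cases had both knockout libraries above both wild-type libraries in 1 cell type and below both in another. None of these differences between cell types was tested. Foxp1 peaks per 10000, knockout minus wild type, were 0.953 in Th1 and -0.508 in Th2 cells. Open Foxp1 regions, knockout minus wild type, numbered -14 in naive and 9.5 in Th1 cells, where the naive knockout lists were also shorter than the wild-type lists. Foxo3 peaks per 10000, knockout minus wild type, were 0.244 in naive and -0.127 in Th2 cells.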

How the results depend on the processing

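The counts below are for the 3 genes together. With lists of equal length, 8 naive regions were absent from the knockout (16 as deposited), 3 Th1 wild-type regions from the Th1 knockout (0), and 1 region was called in each direction in Th2 cells (0 and 0). Th1 against Th2 then gave 6 and 5 (3 and 11), naive regions absent from Th1 were 32 (54), regions open in all libraries 6 (10) and Th1-only regions 0 (1). A −log10 q of at least 2 left 1 naive knockout region (4), 1 and 2 in the Th1 comparison (0 and 4) and 0 Th1-only. Where peaks had to cover 50 percent of a region, 1 wild-type region each was absent from the Th1 and Th2 knockout, 6 were open in all libraries and 0 were Th1-only.

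Leaving out a library loosens the rule of presence and absence, so the counts of this paragraph could only stay or rise. The shares of all regions under the same loosened rule are not given here. Without single libraries, naive regions absent from the knockout numbered 20 to 31 and those open in the knockout alone 4 to 10. The Th1 comparison gave 1 to 5 and 5 to 15, Th2 3 to 5 and 0 to 5, Th1 against Th2 3 to 7 and 12 to 18, and Th1 regions absent from naive cells 8 to 15. Naive-only regions were 15 to 26, Th2-only 3 to 5 and Th1-only 1 to 2. These class counts without libraries were chosen after seeing the data. Without both Th2 knockout libraries, whose titles and source names differ, naive-only regions numbered 15.

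The Foxo1 difference, Th2 minus Th1, was 0.0217 and turned to -0.432 with equal lists, -0.0304 at the stricter q-value, -0.163 for the gene body alone, -0.124 with 50 kb flanks and -0.0696 with the coverage rule, and ran from -0.0899 to 0.122 without single libraries. The Foxp1 difference kept its sign, at -1.60 to -1.01 without single libraries. The cause of these shifts was not tested. Of the 248 recomputed counts and differences of this kind, 197 were classed as the same. For the Th2 minus Th1 differences that class took in other sizes of the same sign. Foxp1 at -0.679 in wild-type libraries alone, beside -1.41, and Foxo3 at 0.360 with equal lists, beside 0.130, were so classed.

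Replicate numbers did not pair the Th1 and Th2 libraries (correlations of deviations -0.0281 in wild type and 0.0175 in knockout, across genes). With the replicate block the differences were -1.41 for Foxp1, 0.0217 for Foxo1 and 0.130 for Foxo3, with exact permutation p of 0.125 (the smallest 4 pairs allow), 0.875 and 0.25. Read depth is unknown, so weak regions that are absent may lie under the calling threshold.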
